A study of Boehmeria nivea with 2 samples.

Results

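The unigenes described here encode enzymes that put double bonds into fatty acids or the bases of sphingolipids, and enzymes that cut lipids. The groups are fatty acid desaturases, phospholipases, GDSL esterases/lipases and triacylglycerol lipases. Members were chosen by the words of their best hit in Swiss-Prot, and 135 of the 46,533 unigenes of the merged ramie assembly qualified. They comprised 64 GDSL esterases/lipases, 48 phospholipases, 19 fatty acid desaturases and 4 triacylglycerol lipases. The data are 2 RNA-seq libraries of leaves of ramie (Boehmeria nivea) Chuanzhu No.8, 30-day-old seedlings raised from cut shoots. In the challenged group (CH), 2 fasted J2 larvae of the ramie moth (RM, Cocytodes coerulea) were put on the leaf in position 4 from the apex of each plant, and the control group (CK), titled mock-challenged, received none. Sampling took the uppermost 2 leaves without damage instead of the leaf with larvae, at 12, 24, 48 and 72 h from 5 pooled plants at each time, and the RNA of the 4 times was mixed in equal amounts into 1 library per group, so no value by time can be given. The comparison asks how transcripts in leaves of plants with larvae differ from those of plants without, and with 1 library per group no difference has a replicate check.

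Desaturases act in sequence. In the plastid stroma, stearoyl-ACP desaturase makes oleate, and the membrane enzymes FAD2 (endoplasmic reticulum) and FAD6 (chloroplast) turn oleate into linoleate. FAD3 and the pair FAD7 and FAD8 then make linolenate in the same compartments, the main fatty acid of leaf galactolipids and the starting point of jasmonate. Phospholipases A release fatty acids from membrane lipids, while phospholipases C and D cut the head group and leave diacylglycerol or phosphatidic acid, both of which act as signals. GDSL esterases/lipases are a large plant family of mostly secreted hydrolases with roles in the cuticle, in development and in resistance to microbes.

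Each unigene has a deposited expected count of fragments, called reads here, and an RPKM (reads per kilobase of unigene, scaled to the library total) in each library. The CK library held 17,800,062 counted fragments and the CH library 26,938,918. Calls of higher or lower in CH rest on the Audic-Claverie test of the reads, adjusted by Benjamini-Hochberg across 43,302 unigenes that had any read. They need an adjusted p under 0.01 together with a 2-fold difference of RPKM. Such a call compares these libraries, not the conditions. Folds are ratios of counts per library total with exact 95% (Clopper-Pearson) intervals, log2 values are RPKM in CH over RPKM in CK, and ranges after an RPKM are exact 95% Poisson intervals. All of these cover counting error only. Fold and log2 value differ where the effective length differed between the libraries. It did so by over 1.1 times in 7 members and by less in some others, such as comp30314_c0.

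Among the members, lower levels in CH outnumbered higher ones. Of the 134 members with a read, 7 were higher and 20 lower, or 5.22% and 14.9%, beside 2.48% higher and 4.28% lower over all unigenes with a read. Because the number of reads limits what can be called, the shares are also given above 2 minimums. Of the 92 members with at least 10 reads over both libraries, 7.61% were higher and 21.7% lower, beside 4.54% and 7.71% of 23,653 unigenes. Among the 74 members with at least 50 reads over both libraries, 6 were higher (8.11%) and 16 lower (21.6%), beside 5.11% and 9.26% of the 15,815 unigenes with that many. The median log2 of the 92 members with at least 10 reads was −0.41 (interquartile range −1.33 to 0.15), and that of all 23,653 such unigenes −0.02 (−0.51 to 0.40). Of the 20 lower calls, 13 were GDSL esterases/lipases, 4 desaturases and 3 phospholipases. The phospholipases lay nearer the shares over all unigenes, with 4.26% higher and 6.38% lower of the 47 with a read. Of the 27 phospholipases with at least 50 reads, 7.41% were higher and 7.41% lower. These counts and medians describe the list and were not tested against other lists. The coefficient of variation (CV) between libraries of a group cannot be estimated here, and edgeR's exact test with a CV set at 0.4 called 0 members higher and 2 lower.

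**Figure D1:**
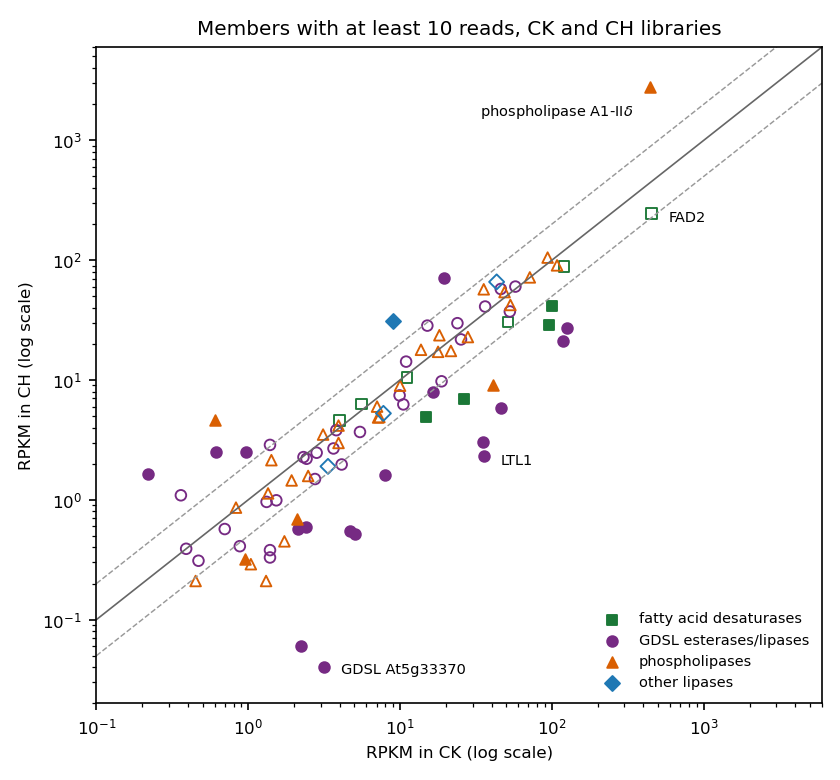
RPKM in CH against RPKM in CK, both on log scales, for the 92 members with at least 10 reads over both libraries. Filled symbols were called, the solid line marks equal RPKM and the dashed lines 2-fold differences. Phospholipase A1-IIdelta lies far above the line at 443 and 2,799 RPKM, and most filled symbols lie below it.

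The remaining 43 members had under 10 reads over both libraries and no call. They were short pieces, with a median length of 304 bp (211 to 515), against 1,353 bp for the 92 others, and summed to 72 reads in CK and 88 in CH. One of them, a phospholipase A1 of class II (comp21998_c0, chosen after its values were seen), had no read in either library. Nr best hits named a genus for 134 members, all of them land plants of 20 genera, with Prunus the most frequent at 38. A land-plant hit does not show that a unigene came from ramie, and this was not tested. The 9 desaturases with under 10 reads all had best hits in Solanum, Brassica, Capsella or Descurainia. A component number was common to 22 members in 11 pairs, which can be pieces or copies of a single gene, and how the counting divided reads within such pairs was not tested.

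All called desaturases were lower in CH. Of the 19 desaturase unigenes, 0 were higher and 4 lower (21.1%), beside 2.48% and 4.28% of all unigenes with a read. Of the 10 with at least 10 reads, 40% were lower, beside 7.71% of all such unigenes. In 8 of these 10 the log2 lay below 0, beside 12,058 of 23,653 unigenes. The median log2 of these 10 desaturases was −0.82, and the RPKM of all 19 summed to 884 in CK and 471 in CH.

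The first double bond is made by stearoyl-ACP desaturase, with 5 unigenes. The most abundant (comp31203_c0) had 3,109 reads in CK and 1,975 in CH, or 99.4 RPKM (96.0 to 103) and 41.6 RPKM (39.8 to 43.5). It was 2.38-fold lower in CH (2.25 to 2.52). The 3 other unigenes with at least 10 reads, of which comp31577_c0 and comp31577_c1 share a component and can be pieces of a single gene, were far less abundant, at 3.97 to 11.1 RPKM in CK, and had log2 values from −0.08 to 0.21 without a call. The class summed to 120.4 RPKM in CK and 63.4 in CH.

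FAD2 was the most abundant desaturase in both libraries. Its main unigene (comp34682_c0) had 13,718 reads in CK and 11,250 in CH, or 453 RPKM (446 to 461) and 245 RPKM (240.6 to 249.7). The ratio CH/CK was 0.542 (0.528 to 0.556) and stayed under the 2-fold threshold, so it was not called. A second FAD2 (comp34587_c1, chosen after its values were seen) had 836 and 754 reads and a close log2 value, −0.75 beside −0.89. The first of them held 51.3% of the summed desaturase RPKM in CK and 52.1% in CH. The other 5 FAD2 unigenes had under 10 reads each.

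In the chloroplast the omega-3 step differed more between the libraries than the omega-6 step. FAD6 (comp27847_c0) had 3,811 reads in CK and 4,246 in CH, 120.3 RPKM and 88.3 RPKM, a ratio of 0.736 (0.705 to 0.769) that was not called. The FAD7/FAD8 unigene comp33538_c0, which makes the linolenate of galactolipids, had 3,073 and 1,411 reads, or 95.5 RPKM (92.2 to 98.9) and 28.9 RPKM (27.4 to 30.4). It was 3.30-fold lower in CH (3.09 to 3.51), and the counting intervals of the 2 enzymes' ratios did not overlap. The main FAD2 unigene alone (comp34682_c0) had 4.75 times the RPKM of comp33538_c0 in CK and 8.48 times in CH. FAD3, the omega-3 enzyme of the endoplasmic reticulum, was represented by a fragment of 380 bp (comp1142376_c0) with 1 read in CK and 3 in CH, too few to compare.

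Sphingolipid delta-8 desaturases, which modify the long-chain base of sphingolipids and not an acyl chain of glycerolipids, were both lower in CH. One (comp33108_c0) had 865 reads in CK and 347 reads in CH, 26.3 and 6.95 RPKM, and was 3.77-fold lower (3.33 to 4.29). The other (comp34038_c0) had 366 and 184 reads, 14.8 and 4.89 RPKM, and was 3.01-fold lower (2.51 to 3.61). In CK the order of the 5 most abundant desaturases was FAD2, FAD6, stearoyl-ACP desaturase, FAD7/FAD8 and the second FAD2, where the counting intervals of the third and the fourth overlapped. In CH the second FAD2 (30.5 RPKM, 28.4 to 32.8) overlapped with FAD7/FAD8 instead. With the CV set at 0.2, FAD7/FAD8 and comp33108_c0 kept their calls, the other 2 lost them, and at 0.4 all 4 were lost.

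**Figure D2:**
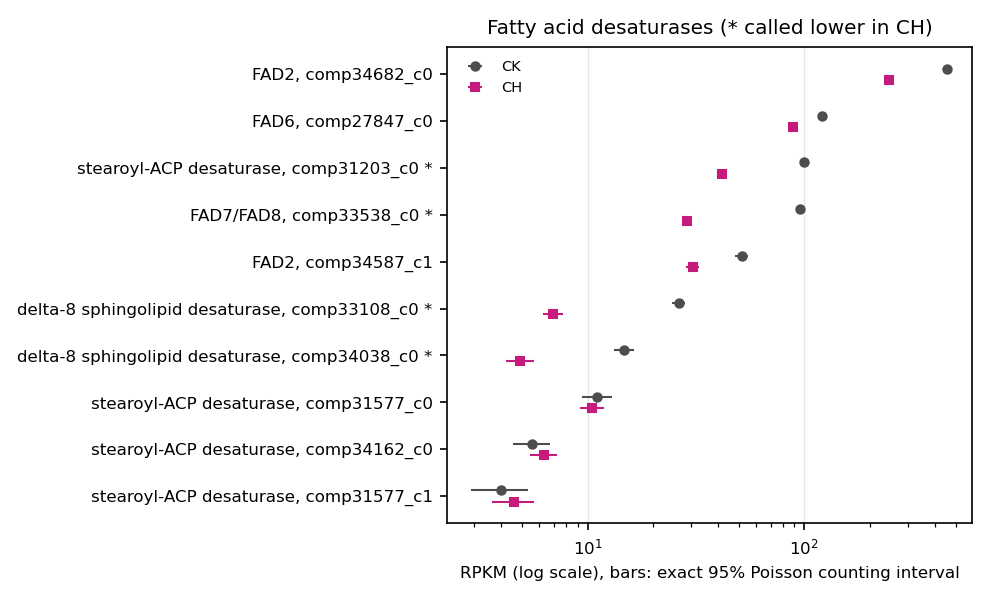
RPKM on a log scale of the 10 desaturase unigenes with at least 10 reads, in CK (grey circles) and CH (pink squares), with exact 95% Poisson counting intervals. The 7 most abundant in CK all lie lower in CH, FAD2 at 453 and 245 RPKM, while the 3 minor stearoyl-ACP desaturases nearly coincide.

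Some markers of photosynthetic leaf tissue were also lower in CH. The list of small subunit of rubisco, chlorophyll a-b binding proteins and rubisco activase held 75 unigenes, of which none was higher, 18 were lower and 57 were not called. Of the 56 with at least 10 reads 32.1% were lower, beside 7.71% of all unigenes with that many. Over these 56 the median log2 was −0.71, and 49 had a log2 below 0. Their RPKM summed to 68,284 in CK and 27,518 in CH, and 4 of the 75 had no read in either library. At a CV of 0.2, 7 of the 18 remained lower. Their part in the lower desaturases, and in the lower GDSL members described further on, was not tested, and in mixed leaf RNA fewer cells of a type and less RNA per cell cannot be told apart.

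A single phospholipase A1 held most of the members' summed RPKM in CH. The phospholipase A1-IIdelta comp38066_c1 had 13,313 reads in CK and 128,209 in CH. These gave 443 RPKM (435.0 to 450.1) and 2,799 RPKM (2,784 to 2,814). In Swiss-Prot the names of its class carry no chloroplast label, while GO annotation assigned this unigene to the chloroplast. It was 6.36-fold higher in CH (6.25 to 6.48). By RPKM it ranked 174 among all unigenes in CK and 16 in CH, and it took 0.0748% of all counted fragments in CK and 0.476% in CH. Of the summed RPKM of all members it held 15.9% in CK and 62.9% in CH. With it the members summed to 2,781 RPKM in CK and 4,452 in CH, and without it to 2,339 and 1,653, so the direction of the sum rested on this unigene. It merged 42 transcripts of the assembly, in a component that also held 4 unigenes with hits to a UDP-glycosyltransferase, and its length is an average over those transcripts. The call held at a CV of 0.2 and not at 0.4.

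Among the other phospholipases A1 of class II, 1 was called. Of all 12 unigenes of the class, 2 were higher and 0 lower. The higher ones were 18.2% of the 11 with a read, beside 2.48% of all unigenes. Beside comp38066_c1, the A1-IIbeta unigene comp30314_c0 was higher, with 8 reads in CK and 103 in CH, 0.60 and 4.66 RPKM, a ratio of 8.51 (4.16 to 20.2). The unigenes comp24580_c1 and comp24580_c0 have the same Nr best hit as comp38066_c1, and whether the counting split reads among them was not tested. They had 93.6 and 105 RPKM, and 48.7 and 54.1 RPKM, in CK and CH, with log2 values of 0.16 and 0.15, and were chosen after their values were seen. Without comp38066_c1 the class summed to 153 RPKM in CK and 173 in CH.

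Phospholipases A1 of class I went the other way where they were called. This class is targeted to the chloroplast and contains, in Arabidopsis, the enzyme DAD1 that releases linolenate for jasmonate in anthers. Of its 9 unigenes 0 were higher and 2 lower (22.2%), beside 2.48% and 4.28% of all unigenes with a read. A1-Ibeta2 (comp34170_c0) had 1,150 reads in CK and 392 reads in CH, 40.6 and 9.12 RPKM, and was 4.44-fold lower (3.96 to 4.99). A1-Igamma1 (comp17211_c0) had 60 and 30 reads, 2.10 and 0.69 RPKM, and was 3.03-fold lower (1.92 to 4.86). A1-Igamma2 comp31328_c0, second to A1-Ibeta2 in CK, was the most abundant of the class in CH, at 35.5 RPKM (33.3 to 37.9) in CK and 57.1 (54.7 to 59.4) in CH, and was not called (ratio 1.61, 1.49 to 1.74). The sum of the class was 118 RPKM in CK and 99.5 in CH. A CV of 0.2 left the call of A1-Ibeta2 and ended that of A1-Igamma1, and 0.4 ended both.

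**Figure D3:**
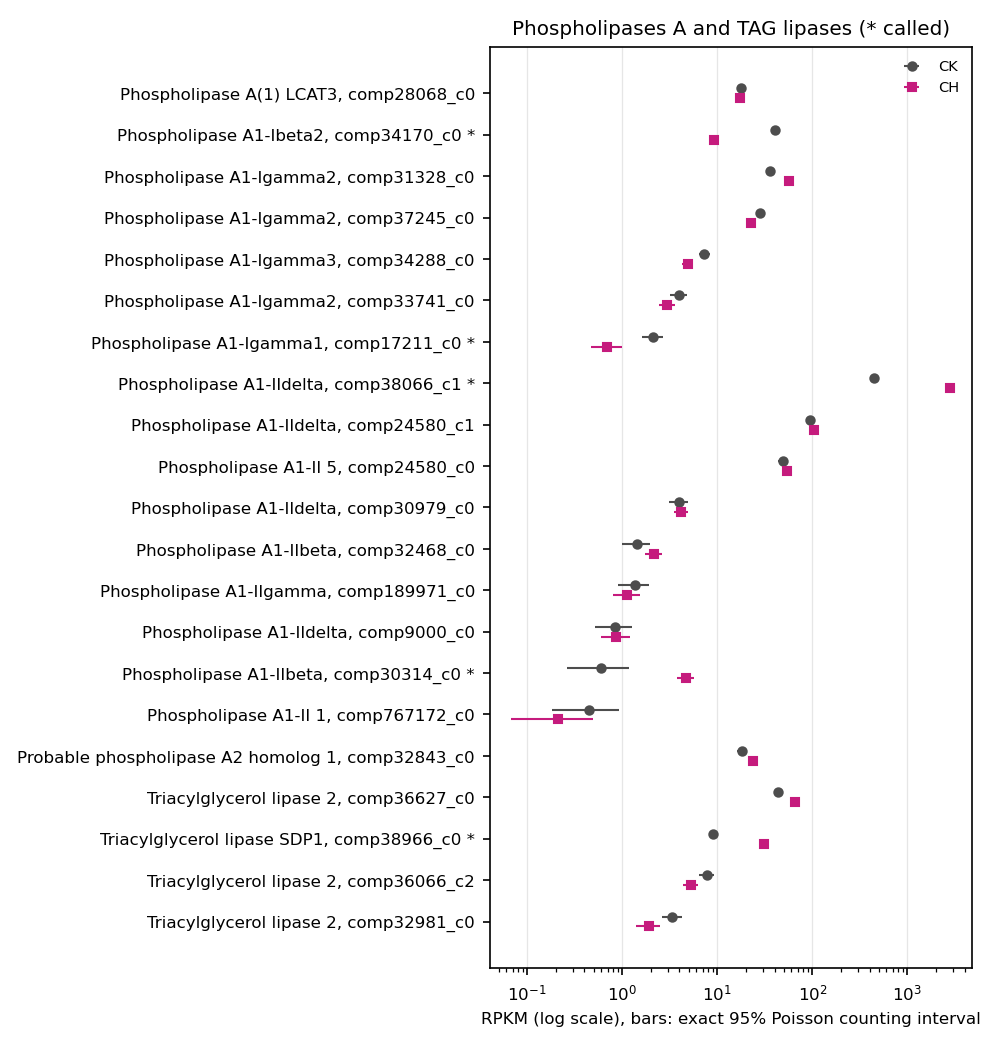
RPKM on a log scale of the phospholipases A and triacylglycerol (TAG) lipases with at least 10 reads, in CK (grey circles) and CH (pink squares), with exact 95% Poisson counting intervals, ordered by class and by RPKM in CK. A1-IIdelta comp38066_c1 moves from 443 to 2,799 RPKM, while A1-Ibeta2 comp34170_c0 lies at 40.6 and 9.12.

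Among phospholipases A2, C and D and the phospholipase A1 of the LCAT family there was 1 call. The single A2 homolog (comp32843_c0), a small secreted enzyme type that frees the fatty acid in the middle position, had 18.1 RPKM in CK and 23.6 in CH (ratio 1.31, 1.12 to 1.53). LCAT3 (comp28068_c0) had 17.8 and 17.2 RPKM (ratio 0.970, 0.866 to 1.09). None of the 6 phosphoinositide phospholipase C unigenes was called. Log2 values of the 5 with at least 10 reads ran from −1.94 to 0.01, and those below −1 rested on 14 and 10 reads. The most abundant, type 2 (comp33688_c0), had 2,712 reads in CK and 4,127 reads in CH, 71.5 and 71.7 RPKM, a ratio of 1.01 (0.958 to 1.06). Of 19 phospholipase D unigenes 0 were higher and 1 lower (5.26%), near the 4.28% of all unigenes with a read. The median log2 of the 10 with at least 10 reads was −0.28. Phospholipase D alpha 1 (comp36325_c0), which makes phosphatidic acid in abscisic acid responses of Arabidopsis, was the most abundant at 108 RPKM (105 to 111) in CK and 90.4 (88.3 to 92.4) in CH, and was not called. The lower unigene, a phospholipase D p1 (comp324410_c0), rested on 25 reads in CK and 13 in CH, and the exact binomial test on the same reads, like a CV of 0.2, did not call it.

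Triacylglycerol lipases included 1 higher unigene of 4 (25.0%), beside 2.48% of all unigenes with a read. SDP1 (comp38966_c0), the lipase that opens the breakdown of seed oil in Arabidopsis, had 544 reads in CK and 2,819 reads in CH, 9.01 and 30.8 RPKM, and was 3.42-fold higher (3.12 to 3.76). Triacylglycerol lipase 2 (comp36627_c0), known in Arabidopsis as MPL1 for its induction by aphids, had 43.2 RPKM (41.3 to 45.2) in CK and 65.8 (63.9 to 67.7) in CH, a ratio of 1.53 (1.45 to 1.61) that was not called. The other 2, with the same Swiss-Prot hit, had log2 values of −0.56 and −0.82, also without a call. The SDP1 call, too, held at a CV of 0.2 and not at 0.4.

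GDSL esterases/lipases made up 64 of the 135 members and held 17 of the 27 calls. Of the 64 unigenes, which hit 35 different Swiss-Prot entries, 4 were higher (6.25%) and 13 lower (20.3%), beside 2.48% and 4.28% of all unigenes with a read. Their RPKM summed to 776 in CK and 496 in CH. Over the 46 with at least 10 reads the median log2 was −0.53, and log2 values ran from −6.31 to 2.90, the widest span of the 4 enzyme groups. Of the 46, 23 lay within 2-fold.

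The members with the lowest ratios CH/CK included homologs of proteins that act on the cuticle. LTL1 (comp31881_c0) was counted 790 times in CK and 77 times in CH, 35.9 RPKM (33.5 to 38.5) and 2.31 RPKM (1.82 to 2.89), and was 15.5-fold lower (12.3 to 19.9). The At5g33370 homolog comp31877_c0 had 58 reads in CK and a count of 1 in CH, 3.17 and 0.04 RPKM, lower by a factor of 87.8 with an interval from 15.1 to 3526. In Arabidopsis both proteins, also named CUS1 and CUS2, have been assigned to cutin polymerization. The homolog of At5g45950 (comp30653_c0) had 886 and 117 reads, 35.0 and 3.05 RPKM, and was 11.5-fold lower (9.44 to 14.0). These 3 and 7 more GDSL unigenes remained lower at a CV of 0.2. At 0.4, LTL1 and comp31877_c0 remained.

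Abundant GDSL members were among the lower ones. The most abundant over both libraries, the APG homolog comp30347_c0, had 3,135 reads in CK and 1,038 in CH, 125 RPKM (120.8 to 129.6) and 27.3 RPKM (25.7 to 29.0), and was 4.57-fold lower (4.26 to 4.91). The At1g29660 homolog comp32683_c0, at 118 and 21.3 RPKM, and the At2g04570 homolog comp37737_c0, at 46.0 and 5.81 RPKM, were also lower, with log2 values of −2.47 and −2.99. These 2 were chosen after their values were seen. Among abundant members that were not called, the 3 most abundant EXL3 homologs comp35920_c2, comp34830_c0 and comp36801_c0 had log2 values of 0.07, 0.32 and −0.50, at 46.0 to 57.4 RPKM in CK, and were likewise picked afterwards. Another EXL3 homolog, comp360925_c0, was sparse, with 12 and 5 reads and a log2 of −1.87, and was not called.

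The higher GDSL unigenes were fewer and, with 1 exception, sparse. The exception, comp33227_c0, is annotated with cutinase activity in GO and had 493 reads in CK and 2,737 in CH, 19.5 RPKM (17.8 to 21.3) and 71.4 RPKM (68.7 to 74.1). It was 3.67-fold higher (3.33 to 4.05) and became the most abundant GDSL unigene of CH. The GLIP1 homolog comp12311_c0 had 4 reads in CK and 45 reads in CH, 0.22 and 1.64 RPKM, a ratio of 7.43 (2.71 to 28.5). GLIP1 is a secreted lipase of Arabidopsis that acts against fungi and bacteria in ethylene-dependent resistance. The At1g74460 homolog comp31788_c0 had 13 and 81 reads, 0.61 and 2.50 RPKM, a ratio of 4.12 (2.28 to 8.06). The fourth, comp28170_c0 with a hit to At5g14450, was named after its values were seen and had 23 and 91 reads, 0.96 and 2.51 RPKM. Homologs of GLIP2 (comp32640_c0, 15.1 and 28.4 RPKM) and GLIP5 (comp32377_c0, 23.8 and 29.8 RPKM), likewise named afterwards, were more abundant than that of GLIP1 and were not called. Of the 4 higher unigenes, comp33227_c0 alone remained higher at a CV of 0.2, and none did at 0.4.

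**Figure D4:**
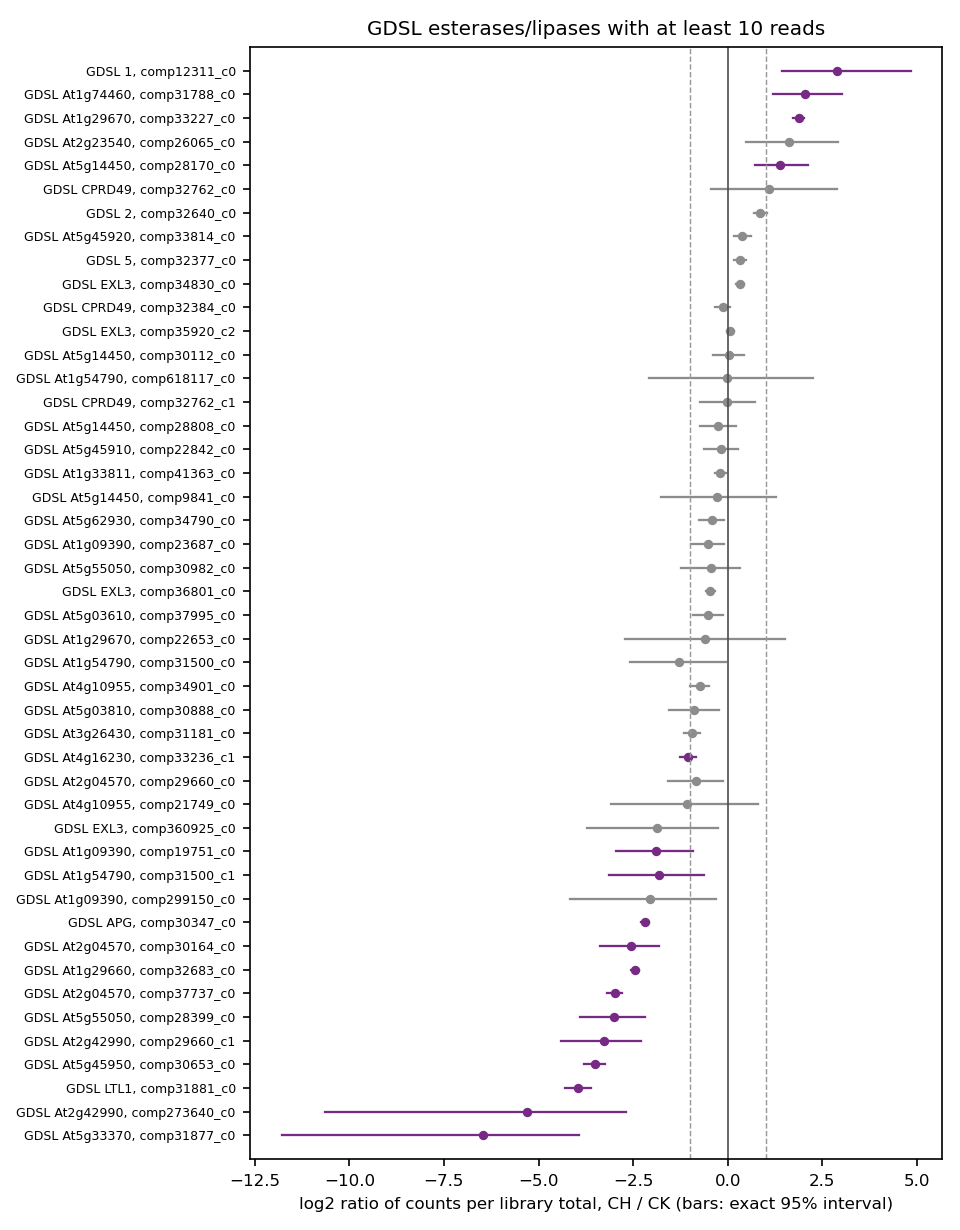
Log2 ratio of counts per library total, CH over CK, of the 46 GDSL esterases/lipases with at least 10 reads, with exact 95% intervals. Purple marks called unigenes, grey those without a call, and dashed lines 2-fold differences. The 13 lower unigenes reach down to comp31877_c0 with 58 reads in CK and 1 in CH.

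All enzyme classes but FAD3 had a unigene with at least 10 reads and so a median. The medians ran from −1.76 in the sphingolipid delta-8 desaturases and −1.72 in FAD7/FAD8 to 0.15 in phospholipases A1 of class II and 0.38 in the single A2. The medians rest on 1 to 46 unigenes and were not tested against each other. The 65 members of at least 1000 bp, all with at least 10 reads, held 6 higher (9.23%) and 15 lower calls (23.1%). Over all unigenes with at least 10 reads the shares were 4.54% and 7.71%. The 46 members under 500 bp held no call, but only 5 of them had at least 10 reads and 0 had 50, which left little to call. Shares over all unigenes of these lengths were not computed. By GO annotation, which the choice of members did not use, 76 members were assigned to the chloroplast, with 5 higher (6.67%) and 11 lower (14.7%). They included the higher class II phospholipases A1 comp38066_c1 and comp30314_c0. The 31 of the extracellular region had 2 higher (6.45%) and 4 lower (12.9%). The 19 of the endoplasmic reticulum had 3 lower (15.8%) and the 20 of the plasma membrane 1 lower (5.00%), with none higher in either. Shares are of those with a read, beside 5.22% and 14.9% of all members and 2.48% and 4.28% of all unigenes. A unigene can carry several of these terms.

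**Figure D5:**
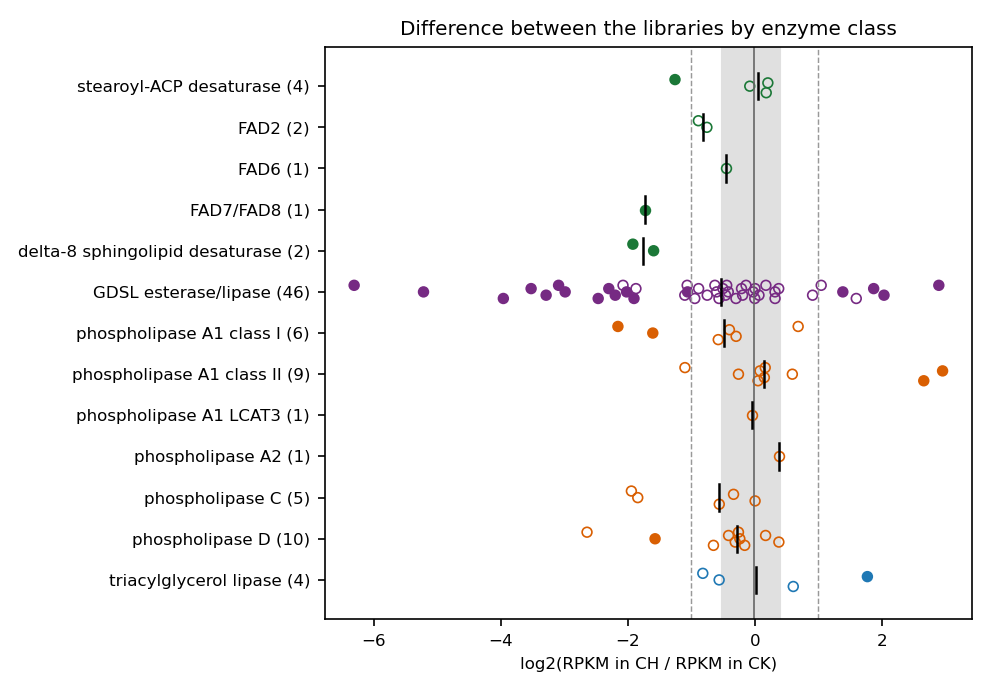
Log2 of RPKM in CH over CK by enzyme class, for members with at least 10 reads (number in brackets). Filled points were called, black bars are class medians, the grey band and line show the interquartile range and median of all unigenes with at least 10 reads (−0.51 to 0.40 and −0.02), and dashed lines mark 2-fold differences. FAD3 had no unigene with 10 reads and is not drawn.

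Neighboring steps of lipid metabolism, sorted into lists by the words of their Swiss-Prot hits, gave the setting, and the unigenes named from them were picked after their values were seen. Upstream of the desaturases, fatty acid synthesis on the acyl carrier protein had 34 unigenes, none higher and 1 lower, and a median log2 of −0.10. The share lower was 3.03% of those with a read, beside 4.28% of all unigenes. The lower one was palmitoyl-ACP thioesterase (comp35780_c1), which releases palmitate, at 50.7 RPKM in CK and 22.5 in CH. Glycerolipid assembly had 27 unigenes and a median of −0.07. Of those with a read 3.85% were higher and 3.85% lower, beside 2.48% and 4.28% of all unigenes. Glycerol-3-phosphate acyltransferase 5 (comp28256_c0), a suberin enzyme in Arabidopsis, was higher on 2 and 27 reads, and monogalactosyldiacylglycerol synthase 2 (comp34179_c0) was lower on 112 and 62 reads. Of 6 long-chain acyl-CoA synthetases 1 was lower (16.7%), beside 4.28% of all unigenes with a read. It was the LACS2 homolog comp37726_c0, which acts in cutin synthesis in Arabidopsis, at 11.4 and 2.81 RPKM. Of 3 desaturases outside the members 1 was lower (33.3%), beside the same 4.28%. It was the monogalactosyldiacylglycerol delta-7 desaturase comp30564_c0, a plastid enzyme, at 4.47 and 0.54 RPKM. The others were a sterol desaturase (comp36134_c0) and a unigene with a Thalassiosira best hit on 0 and 4 reads (comp8649_c0).

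Oxylipin synthesis and beta-oxidation use released fatty acids. In oxylipin synthesis 10 of 37 unigenes (27.0%) were higher and 2 (5.41%) lower, beside 2.48% and 4.28% of all unigenes with a read, and the lists were not tested against each other. The 10 were 4 9S-lipoxygenases, which do not lead to jasmonate, and 2 13S-lipoxygenases and 4 allene oxide synthases, which act on its route. Among these 9S-lipoxygenases, comp29491_c0, comp29491_c1 and comp29491_c2 share a component and can be pieces of a single gene. The 13S-lipoxygenase comp38454_c0 was the most abundant, at 612 RPKM in CK and 2,580 in CH, followed in CH by the 9S-lipoxygenase comp39017_c0 at 470.1 and 2,276 RPKM. The 2 lower ones were also 13S-lipoxygenases, comp25237_c0 at 4.28 and 1.42 RPKM and comp37039_c0 at 78.1 and 34.5 RPKM. The median log2 of this list was 0.51. In peroxisomal beta-oxidation 2 of 13 (15.4%) were higher, beside 2.48% of all unigenes with a read, and none lower, with a median of 0.79. Both were acyl-CoA oxidases, comp37093_c0 at 41.3 and 85.7 RPKM and comp38139_c0 at 9.14 and 20.6 RPKM. With the CV set at 0.2 none of the calls in synthesis, assembly and beta-oxidation remained.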

How the data were processed

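Both libraries were assembled together by the authors with Trinity. For each unigene and library the authors deposited an expected count of fragments, not normalized, and an RPKM that divides it by effective length and library total. The authors' deposited TPM was not used. Lengths are averages over transcripts. The mapper and counter: not given in the sources used here. Swiss-Prot and Nr best hits came from the deposited annotation.

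Each expected count was rounded to a whole number. The 2-sided Audic-Claverie test, named in the study alongside DESeq, covered 43,302 unigenes, and calls needed adjusted p under 0.01 with RPKM at least 2-fold apart. In log2 values a library with 0 reads was set at a floor of 3 reads. The test was checked on simulated Poisson counts, which hold counting error but no spread between libraries. That check therefore does not bear on differences between replicate libraries. Members and lists were chosen with earlier results of these data known. Named in each class were the most abundant member and, in each direction, up to 3 called members whose interval bound nearest to 1 lay farthest from it; others are marked as chosen after their values were seen. Alternatives covered an exact binomial comparison, a preset or blind dispersion in edgeR's exact test, TMM and median-of-ratios scaling, filters on reads and length, land-plant best hits, a pseudocount of 1 RPKM, and stricter calls at 4-fold or at an adjusted p of 0.001. Sequences of the unigenes were not used here. Tools were Python 3.11.15 (numpy 2.4.6, pandas 2.3.3, scipy 1.17.1, matplotlib 3.10.9) and R 4.3.3 (edgeR 4.0.16, DESeq2 1.42.0 for size factors).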

Additional observations from a re-analysis of the deposited data

How the results depend on the processing

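The number of calls depended mostly on the spread assumed between libraries, which 1 library per group cannot give. With edgeR's exact test and an assumed coefficient of variation of 0.2, 4 members were higher and 13 lower, with 2 lower desaturases, 1 higher GDSL unigene and 1 lower phospholipase, beside 495 higher and 579 lower of all unigenes (1075 and 1854 in the Audic-Claverie test). With 0.4, 0 members were higher and 2 lower, both GDSL unigenes. Another setting took edgeR's dispersion from both libraries as if replicates, as a trend over abundance. Its common value, which the test did not use, was a coefficient of variation of 0.407. There 0 members were higher and 3 lower, all GDSL, so desaturases, phospholipases and other lipases had 0 calls in both settings. Over all 43,302 unigenes with a read these settings gave 134 higher and 52 lower, and 60 and 51. The member calls left were too few to compare their direction with that of all unigenes. At a 4-fold threshold 4 members were higher and 12 lower, with 0 lower desaturases, 2 higher GDSL unigenes, 1 lower phospholipase and 0 higher triacylglycerol lipases, beside 585 and 654 of all unigenes. With members of at least 1000 bp, 8 GDSL unigenes were lower and 1 phospholipase was higher, with at least 10 reads in each library 1 phospholipase was higher, and with a pseudocount of 1 RPKM 1 phospholipase was lower. Every other count of members stayed within 1.5 times. The median log2 of the desaturases, −0.82, was −0.49 over those with at least 1 read and −1.07 over those of at least 1000 bp. Scaling by TMM or by median of ratios raised every log2 value by 0.05 or 0.08. A named unigene with a call could not change direction under any alternative. Its RPKM lay at least 2-fold apart, and the alternatives altered its log2 value only by these shifts or by the pseudocount. With these scalings LCAT3 (comp28068_c0), without a call at −0.05, came to 0 or just above it. No paired analysis was possible because each group has 1 library. DESeq2's test was not run, since 1 library per group leaves it no residual degrees of freedom.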
